A study of Mus musculus with 25 samples.

Results

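The 7 genes described here, Gabra2, Gabra3, Gabra4, Gabra5, Gabrb1, Gabrb2 and Gabrd, encode subunits of the GABA-A receptor. They were chosen by symbol, and all 7 were found among the 23990 genes of the deposited table. The study sequenced total RNA of the prefrontal cortex of wild-type C57BL/6 mice aged 10 weeks, in 25 samples. Stressed mice given dihydrocaffeic acid and malvidin-glucoside (4 female, 4 male), stressed mice given vehicle (4 female, 5 male) and control mice without stress (4 female, 4 male) made up 6 groups. Stress was social defeat, in which a mouse is repeatedly exposed to an aggressor, and the plant phenolic compounds or vehicle were given before and during it. The column names carry a letter and a number that occur in no sample label. Of these columns, the 5 of 1 letter were tied to stressed vehicle-treated males, because that letter and that group are the only ones numbered up to 5. This reads the letter as the group and the number as the replicate. The 20 other columns match 5 groups of 4 samples equally well by name and were not analysed here. No effect of stress, treatment or sex on the subunits can therefore be given, and every value below describes 5 libraries of stressed males.

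GABA-A receptors are chloride channels built from 5 subunits and opened by GABA, the main inhibitory transmitter of the cortex. Most hold a pair of α subunits, a pair of β subunits and a γ or δ subunit, and GABA binds between β and α. The α subunit sets much of the drug sensitivity and the place of the receptor on the neuron. Receptors with δ, or with α5, lie largely outside synapses and carry tonic inhibition.

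Gene reads numbered 34565147 to 44265039 in each of the 5 libraries. Levels are given in CPM, read numbers scaled to the effective size of the library, and 14524 genes averaged 1 CPM or more. Each member had 1438 to 7652 reads in a library, so that counting alone gave an SD of 1.22% to 2.44% of its level. The tissue label was set against marker genes. All 7 excitatory neuron markers had at least 1 CPM, with Camk2a, the synaptic kinase, at 3402 ± 424 CPM and Slc17a7, the cortical vesicular glutamate transporter, at 1926 ± 94.3 CPM (SD, n = 5). No marker of any cell type listed was without reads in all libraries. Markers of neighbouring regions were also read: all 9 striatal projection neuron markers, all 6 thalamic neuron markers and 2 of 5 dentate granule neuron markers (Stxbp6 and Prox1, but not Dsp, Tdo2 and C1ql2) had at least 1 CPM. Separate animals are not stated in the labels, so SDs measure the spread between these libraries, part of which may be technical. The p-values test whether reads depart from counting error between these same libraries. They also depend on the number of reads and do not measure the size of the spread.

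Among the α subunit genes, Gabra3 encodes the α3 subunit, which forms benzodiazepine-sensitive receptors. It lies on the minus strand of chromosome X (GRCm38, 72432681 to 72656848). Its level in replicates 1 to 5 was 152, 156, 172, 189.6 and 184 CPM, a mean of 170.5 ± 16.6 CPM (SD, n = 5). Replicates 4 and 5 were highest and replicates 1 and 2 lowest, with a highest value 1.25 times the lowest. Per kilobase of the union of its exons it stood at 43.5 ± 4.22 RPKM, above the other 6 members in every library. Of its 3924 exon bases, 40.7% were coding.

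Gabra5, the α5 subunit of extrasynaptic receptors, lies on the minus strand of chromosome 7 (57407672 to 57510059). It had 57.9, 63.8, 68.35, 58.9 and 63.1 CPM in replicates 1 to 5, a mean of 62.4 ± 4.19 CPM. It was highest in replicate 3 and lowest in replicate 1 (in replicate 4 with libraries scaled to total reads), and its highest value was 1.18 times its lowest, the narrowest range of the 7 genes. Of its exon bases, 148 (4.98%) are shared with Gm9962 on the opposite strand. Whether reads were counted by strand is not stated, so reads of such bases could belong to either gene.

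Gabra4 encodes α4, a subunit that pairs with δ outside synapses and forms receptors insensitive to diazepam. It had 73.5, 78.1, 81.2, 98.5 and 82.4 CPM, a mean of 82.7 ± 9.44 CPM, with replicate 4 above the other libraries. Gabra2, the α2 subunit found at synapses and on the axon initial segment, had 38.8, 37.6, 34.1, 54.4 and 49.5 CPM, a mean of 42.9 ± 8.62 CPM. Its replicates 4 and 5 lay above the other libraries without overlap, and its highest value was 1.59 times its lowest. Per kilobase of exon Gabra2 was the lowest of the members, at 5.61 ± 1.13 RPKM.

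Of the β subunit genes, Gabrb2 encodes β2, a β subunit common in receptors of the adult brain. It lies on the plus strand of chromosome 11 (42419757 to 42629028) and had 80.9, 94.8, 112, 137 and 101 CPM, a mean of 105 ± 21.0 CPM. Replicate 4 was highest and replicate 1 lowest, 1.69-fold apart, the widest range of the 7 genes. Gabrb1, encoding β1, had 139, 152, 143, 154 and 175 CPM, a mean of 152.5 ± 13.7 CPM, with replicate 5 highest. The δ subunit gene Gabrd, whose receptors carry tonic inhibition and respond to neurosteroids, lies on the minus strand of chromosome 4 (155384980 to 155398112). It had 45.6, 42.7, 49.97, 57.8 and 42.2 CPM, a mean of 47.6 ± 6.47 CPM, and was highest in replicate 4.

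**Figure D1:**
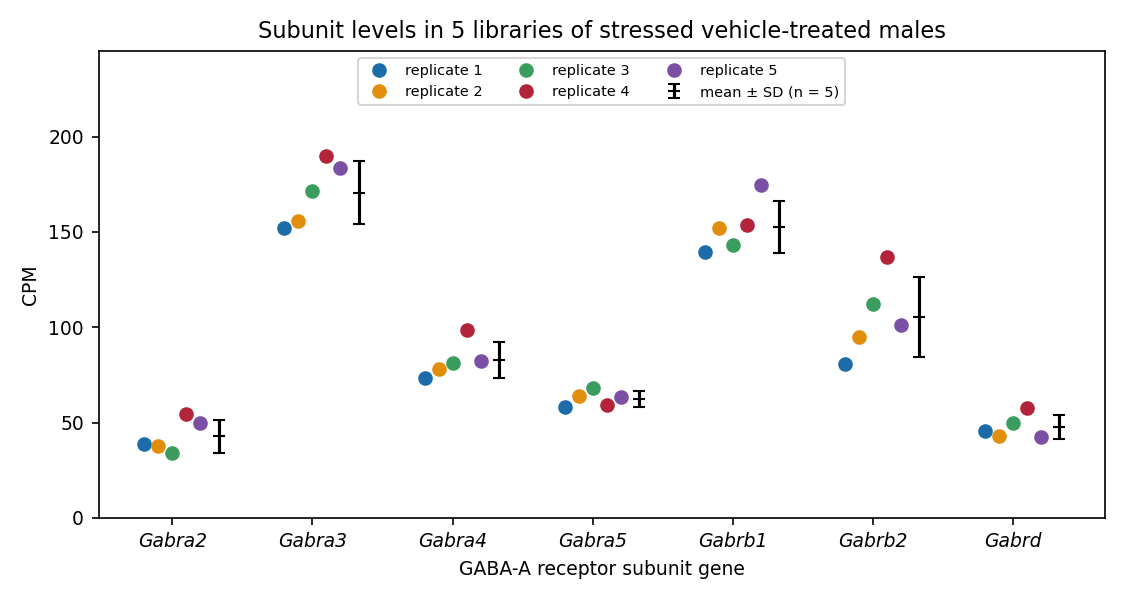
Expression of each subunit gene in CPM (vertical axis, from 0) in the 5 libraries of stressed vehicle-treated males, with points coloured by replicate and black bars for the mean ± SD (n = 5). Replicate 4 was the highest of the 5 libraries for Gabra2, Gabra3, Gabra4, Gabrb2 and Gabrd.

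The genes Gabra2, Gabra4 and Gabrb1 lie in a row on chromosome 5. Gabra2 occupies 70957597 to 71095849 on the minus strand, and Gabra4 occupies 71569749 to 71658308 on the same strand, 473899 bases further along. Gabrb1 runs the other way, on the plus strand, from 71658113 to 72149037. The annotated bodies of Gabra4 and Gabrb1 overlap by 196 bases at their starts, of which 46 are exon bases of both genes (0.756% of the Gabra4 exon bases and 0.332% of those of Gabrb1). Gabrg1, the γ1 subunit gene, lies 114979 bases before Gabra2. Gabra2, Gabra4 and Gabrb1 shared their profile over the libraries only in part. Gabra2 was lowest in replicate 3, whereas Gabra4 and Gabrb1 were lowest in replicate 1 (Gabrb1 in replicate 3 with libraries scaled to total reads), and Gabra2 and Gabra4 were highest in replicate 4, whereas Gabrb1 was highest in replicate 5.

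Promoter windows of 300 bases, 250 before and 50 after an annotated start, were matched by symbol for 6 of the 7 members (10 windows, RefSeq on GRCm38.p6). One window each of Gabra4 and Gabrb1 is shown because these genes start beside each other in opposite directions, and one each of Gabra2 and Gabrb2 because these genes had the widest spread between libraries. Each is written 5′ to 3′ on the gene's own strand. Capitals mark matches to the letters CCAAT or TATAAA or TGACG on either strand, and the Gabrb1 window shown had none. The windows are chr5:71658259-71658558 (Gabra4, minus), chr5:71657671-71657970 (Gabrb1, plus), chr5:71095800-71096099 (Gabra2, minus) and chr11:42420190-42420489 (Gabrb2, plus).
Gabra4: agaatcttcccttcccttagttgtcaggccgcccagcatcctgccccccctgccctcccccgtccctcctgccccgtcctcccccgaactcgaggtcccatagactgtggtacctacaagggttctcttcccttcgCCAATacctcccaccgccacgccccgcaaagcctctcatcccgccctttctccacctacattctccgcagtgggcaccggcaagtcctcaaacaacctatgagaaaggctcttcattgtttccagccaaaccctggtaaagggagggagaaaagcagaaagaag
Gabrb1: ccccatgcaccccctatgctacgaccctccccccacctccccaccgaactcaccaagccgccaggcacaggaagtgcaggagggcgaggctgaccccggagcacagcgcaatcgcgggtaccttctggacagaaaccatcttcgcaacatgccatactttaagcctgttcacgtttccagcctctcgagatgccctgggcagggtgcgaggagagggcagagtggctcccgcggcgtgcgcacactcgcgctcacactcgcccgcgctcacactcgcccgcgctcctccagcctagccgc
Gabra2: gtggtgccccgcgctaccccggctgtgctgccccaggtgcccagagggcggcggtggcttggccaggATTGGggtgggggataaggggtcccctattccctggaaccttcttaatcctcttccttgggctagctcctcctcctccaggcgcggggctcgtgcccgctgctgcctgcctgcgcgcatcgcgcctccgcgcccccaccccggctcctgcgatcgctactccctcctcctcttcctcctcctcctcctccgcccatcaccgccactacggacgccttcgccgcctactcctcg
Gabrb2: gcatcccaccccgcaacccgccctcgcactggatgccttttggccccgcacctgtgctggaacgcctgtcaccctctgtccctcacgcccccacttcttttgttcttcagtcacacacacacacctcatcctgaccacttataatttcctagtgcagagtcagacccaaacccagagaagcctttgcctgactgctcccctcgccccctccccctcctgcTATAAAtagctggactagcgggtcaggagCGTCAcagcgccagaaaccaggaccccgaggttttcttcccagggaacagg

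The Gabrb1 window holds 247 exon bases of Gabra4, 86 of them coding, and the Gabra4 window holds 73 exon bases of Gabrb1. CCAAT occurred as written in the Gabra4 window, with its first base at -114 from the start, and as the reverse complement in the Gabra2 window, at -183. CCAAT was also in both Gabra3 windows, in that of Gabra5 and in another window of Gabrb2, and was in 37.4% of all 32851 windows of the table. The Gabrb2 window shown held TATAAA at -30 (also in both Gabra3 windows and in 13.6% of all windows) and the reverse complement of TGACG at -1 (20.8% of all windows). The EGR letters GCGTGGGCG and GCGGGGGCG, the CRE letters TGACGTCA, the E-box CACGTG and the REST letters TTCAGCACC were also searched on both strands and occurred in none of the 10 windows. GC content in the windows shown was 70% for Gabra2, 66% for Gabrb1, 59% for Gabrb2 and 58.7% for Gabra4, against a median of 52.7% over all windows. It was 50.3% in the second Gabrb1 window, 54.7% and 41% in the other Gabrb2 windows, 56.7% for Gabra5 and 39.3% and 43% for Gabra3, so that 6 of the 10 windows were over that median.

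The order of the levels depends on the length by which reads are divided. Per kilobase of union exon it ran from Gabra3 (43.5 ± 4.22 RPKM) over Gabra5 (21.0 ± 1.41), Gabrd (16.6 ± 2.25), Gabrb2 (16.5 ± 3.30), Gabra4 (13.6 ± 1.55) and Gabrb1 (11.02 ± 0.989) to Gabra2 (5.61 ± 1.13 RPKM; SD, n = 5). The ranges of Gabra3 and Gabra5 did not overlap, and neither did those of Gabrb1 and Gabra2. The ranges of the 4 other neighbouring pairs overlapped. Gabra5 was nevertheless above Gabrd in 4 of 5 libraries, Gabrb2 above Gabra4 in 5 of 5 and Gabra4 above Gabrb1 in 5 of 5, while Gabrd was above Gabrb2 in 1 of 5.

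Gabrb1 is the gene for which the length mattered most, since 10.3% of its 13838 exon bases are coding. Per kilobase of coding sequence it came first with 107 ± 9.62, beside Gabra3 with 107 ± 10.4, and their ranges overlapped. All reads of a gene were divided by each length, not reads of coding bases alone. Division by coding length therefore raises genes with a small coding part, and that order is not one of coding reads. The highest member was 7.74 times the lowest per kilobase of union exon, 3.38 times per kilobase of coding sequence and 6.35 times per kilobase of the longest transcript. Gabra2 was the lowest member under each of these 3 lengths.

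**Figure D2:**
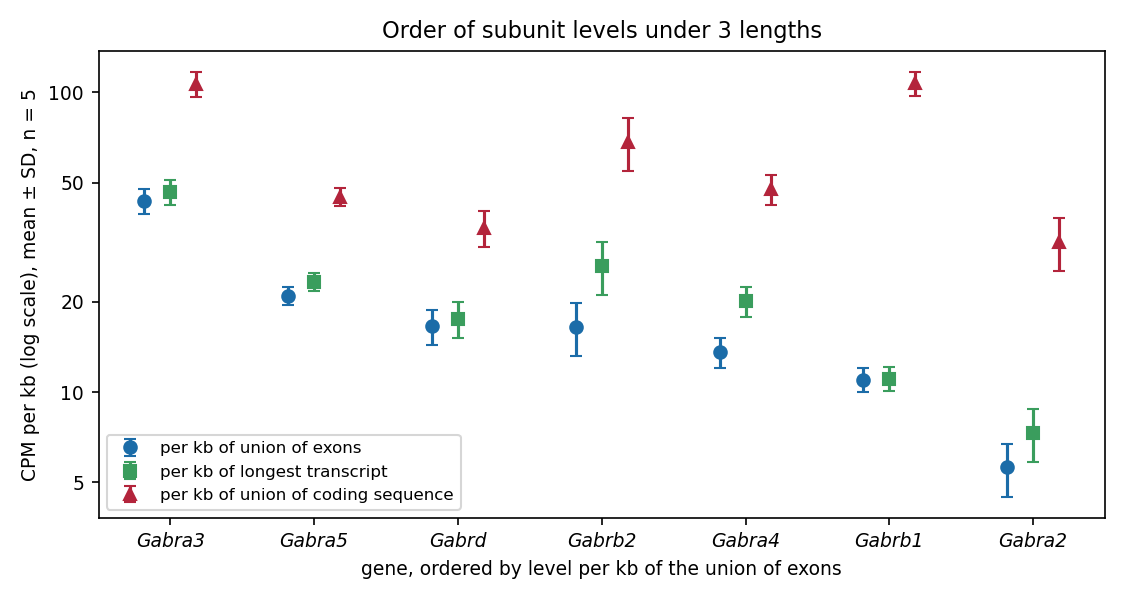
Mean level per kilobase ± SD over the 5 libraries (vertical log axis) of the 7 genes, ordered along the horizontal axis by level per kilobase of union exon, with lengths given as union exon (circles), longest transcript (squares) and union coding sequence (triangles). Gabra2 was lowest under each length, and Gabrb1 moved to first place when all its reads were divided by coding length alone.

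Within the α members summed in RPKM, Gabra3 made up 51.9 ± 1.15%, Gabra5 25.2 ± 2.35%, Gabra4 16.2 ± 0.882% and Gabra2 6.68 ± 0.978% (SD, n = 5). The share of Gabra3 stayed between 50.3% and 53.1% in the 5 libraries. The share of Gabra5 was lowest in replicate 4, at 21.7%, where those of Gabra4 (17.7%) and Gabra2 (7.78%) were highest. Of the summed β members Gabrb2 made up 59.6 ± 4.62%, with 66.0% in replicate 4 and 55.7% in replicate 5. With all reads of a gene divided by coding length alone, the larger β gene was Gabrb1, with Gabrb2 at 38.7 ± 4.64%. Gabrb2 was at 69.97 ± 3.99% per kilobase of the longest transcript. The share of Gabra2 was 13.7 ± 1.80% per kilobase of coding sequence, and there Gabra4 (20.6 ± 0.926%) was beside Gabra5 (19.6 ± 2.10%). All other shares given use union exon lengths, and all cover the members alone, not all α and β genes.

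All 7 members varied between the libraries beyond counting error in a chi-square test of equal levels, at a Benjamini-Hochberg adjusted p under 0.05. Over all genes tested the share called was 74.4% (14308 of 19239), and among the 3693 genes between the lowest and the highest member in mean CPM it was 93.4%. A call was thus the rule among genes of this level, and the count says little about the subunits. The adjusted p of the chi-square test ran from 2.55e-133 for Gabrb2 to 7.23e-09 for Gabra5.

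The size of the spread differed between the members. With the counting part taken off, the coefficient of variation (CV) over the 5 libraries was 19.95% for Gabra2 and 19.9% for Gabrb2, both above the upper quartile of genes of at least 1 CPM (13.5%). It was 13.4% for Gabrd, 11.3% for Gabra4, 9.64% for Gabra3, 8.88% for Gabrb1 and 6.40% for Gabra5. Leaving out each replicate in turn gave these CVs an error of 1.96 (Gabra3) to 7.66 (Gabrb2) percentage points. Members with neighbouring CVs are therefore not separated. The median over members was 11.3%, beside 8.25% over the 14524 genes of at least 1 CPM and 6.35% over the 3693 genes of like level. Gabra5 alone of the 7 was under the median of the 14524 genes, and at 6.40% it lay beside the median of genes of like level. The upper quartile of the genes of like level was 9.08%, and all members but Gabrb1 and Gabra5 were above it. Single libraries carried part of these values. Without replicate 4 the CV was 4.69% for Gabra4, 7.55% for Gabrd, 13.3% for Gabrb2 and 16.4% for Gabra2. It was 8.74% for Gabra3, 6.47% for Gabra5 and 10.3% for Gabrb1 under that setting. The upper quartile of all genes without replicate 4 is not given here. Without replicate 5 the CV of Gabrb1 was 4.52%.

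**Figure D3:**
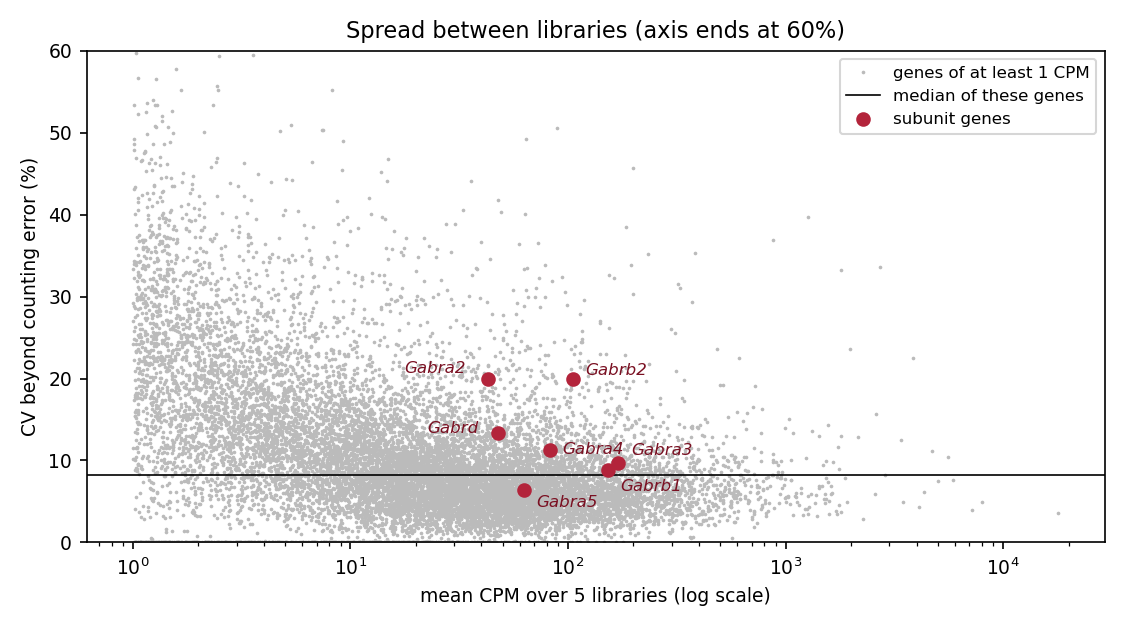
Coefficient of variation over the 5 libraries with the counting part taken off (vertical axis, %) against mean CPM (horizontal log axis) for the 14524 genes of at least 1 CPM (grey) and the 7 subunit genes (red), with a line at the median of 8.25%. Gabra2 and Gabrb2 lie near 20%, Gabra5 lies below the line, and 28 genes lie beyond the axis end at 60%.

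Most members lay on the same side of their own mean in replicates 1 and 4. As log2 CPM less the gene's own mean, the median over the 7 members was -0.13 in replicate 1, -0.13 in replicate 2, 0.01 in replicate 3, 0.26 in replicate 4 and 0.02 in replicate 5. The median over all genes of at least 1 CPM stayed between -0.0067 and 0.0098. Library scaling holds that median near 0, so it does not show how far a median of 7 genes strays. Medians of other sets of 7 genes are not given here. In replicate 4, 6 of 7 members were above their own mean (5 of 7 with libraries scaled to total reads) and 5 were at their highest. In replicate 1 none was above its mean and 5 were at their lowest (3 with libraries scaled to total reads). The shares of all genes at their highest or lowest in these libraries are not given here. All 7 were higher in replicate 4 than in replicate 1, as were 52.9% of genes of at least 1 CPM, but Gabra5 was lower there (log2 difference -0.04) under that scaling.

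The size of that difference was uneven. On the log2 scale, replicate 4 less replicate 1 was 0.76 for Gabrb2, 0.49 for Gabra2, 0.42 for Gabra4, 0.34 for Gabrd, 0.32 for Gabra3, 0.14 for Gabrb1 and 0.03 for Gabra5. The range of the members' median over libraries was 0.386 with all libraries and 0.186 without replicate 4. Gabra5 was the one member below its own mean in replicate 4, at -0.08 (Gabrb1 was below as well with libraries scaled to total reads), and it was highest in replicate 3, at 0.13. Gabrb1 was highest in replicate 5, at 0.20.

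Marker lists of cell types moved between the same libraries. The summed level of 7 upper layer neuron markers, all with at least 1 CPM, ran from 713 CPM in replicate 3 to 1152 CPM in replicate 4, and 6 of the 7 were highest in replicate 4. Among them Lamp5 had 119 CPM in replicate 4 against 43.5 to 56.3 CPM in the other libraries. The summed level of 8 deep layer neuron markers ran from 539 CPM in replicate 4 to 783 CPM in replicate 2, and 7 of the 8 were lowest in replicate 4 (all 8 with libraries scaled to total reads). That of 8 oligodendrocyte markers, such as the myelin gene Mbp, ran from 4264 CPM in replicate 4 to 9308 CPM in replicate 3, and 7 of the 8 were lowest in replicate 4. None of these markers was without reads. In replicate 1, 8 of 8 oligodendrocyte, 8 of 8 astrocyte, 6 of 6 oligodendrocyte precursor and 5 of 6 microglia markers were above their own mean. Of upper layer markers 3 of 7 were above it there, and of deep layer markers 2 of 8. With libraries scaled to total reads the microglia, upper layer and deep layer counts were 6, 4 and 3.

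The lists of neurons as a whole spanned narrower ranges in their sums. For 7 excitatory markers the sum ran from 5638 CPM in replicate 3 to 6679 CPM in replicate 4, of which Camk2a alone had 2897 and 4010 CPM. Gene by gene, 5 of these 7 were lowest in replicate 1 and 0 were above their own mean there (4 and 1 with libraries scaled to total reads). The sum of 9 interneuron markers ran from 1028 CPM in replicate 1 to 1124 CPM in replicate 3. With libraries scaled to total reads its lowest value fell in replicate 4. In replicate 4, 3 of these 9 were at their highest and 2 at their lowest (2 and 3 with that scaling). Blood markers (4 of 4 with at least 1 CPM) had their lowest sum, 90.1 CPM, in replicate 2 and their highest, 176 CPM, in replicate 4, and mural and leptomeningeal markers (7 of 7) ranged from 135 CPM in replicate 3 up to 179.7 CPM in replicate 4. The part of these markers in the subunit values was not tested. In tissue RNA fewer cells of a type and less RNA per cell cannot be told apart.

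**Figure D4:**
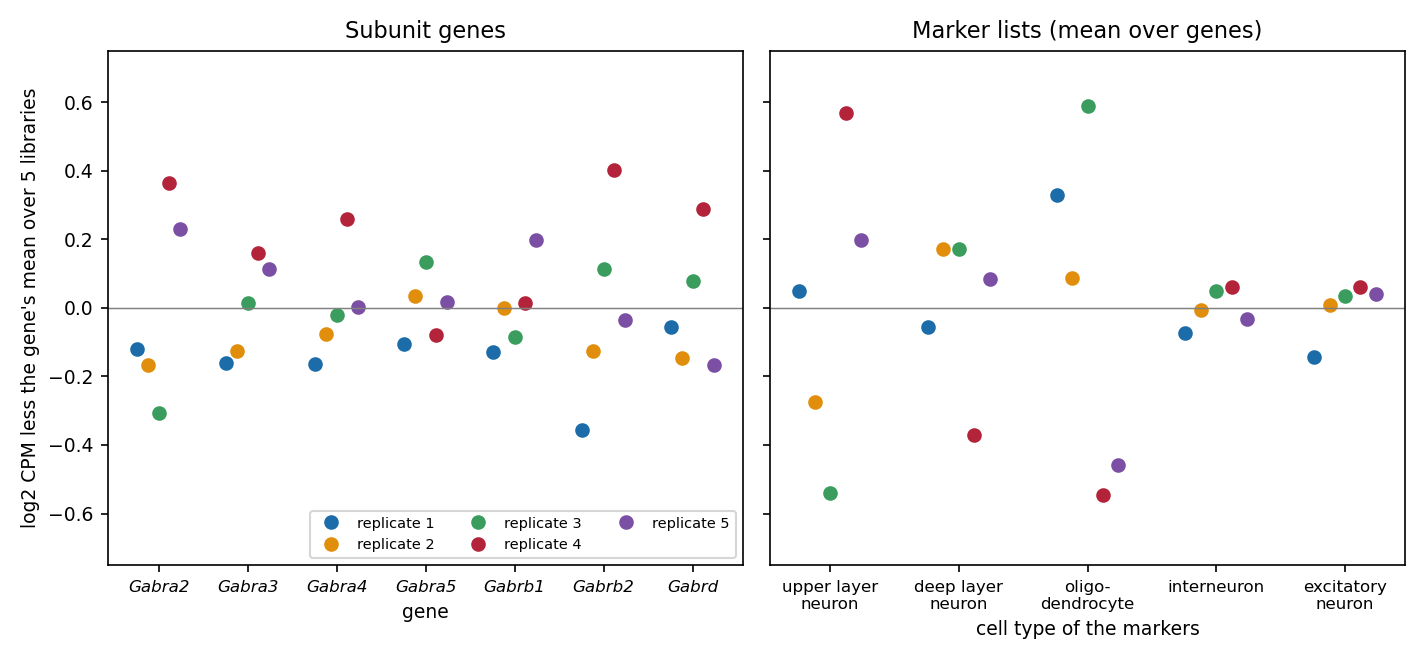
Log2 CPM less the gene's mean over the 5 libraries (vertical axis) for each subunit gene on the left and, on the right, the mean of the same quantity over the genes of 5 marker lists, with points coloured by replicate. Replicate 4 (red) lay above 0 for 6 of 7 subunits (5 of 7 with libraries scaled to total reads) and for the upper layer markers, and below 0 for Gabra5 and for the deep layer and oligodendrocyte markers.

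Ratios between members do not depend on library scaling. Over the 21 pairs the SD of the log2 read ratio had a median of 0.196, beside 0.0383 from counting alone. Gabra3 to Gabra4 was the steadiest pair, with 1.93 to 2.23 reads of Gabra3 for each read of Gabra4 and an SD of 0.08 on the log2 scale. Gabra4 to Gabrd (1.61 to 1.95) and Gabra3 to Gabrb1 (1.02 to 1.24) followed, each with an SD of 0.12. Ratios of gene pairs outside the members are not given here for comparison. The loosest pair was Gabra2 to Gabra5, from 0.499 in replicate 3 to 0.922 in replicate 4, with an SD of 0.35. Gabrb1 to Gabrb2, the pair of β genes, ran from 1.12 in replicate 4 to 1.73 in replicate 5, with an SD of 0.28. Read ratios rest on unequal gene lengths and compare libraries, not the levels of the genes.

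**Figure D5:**
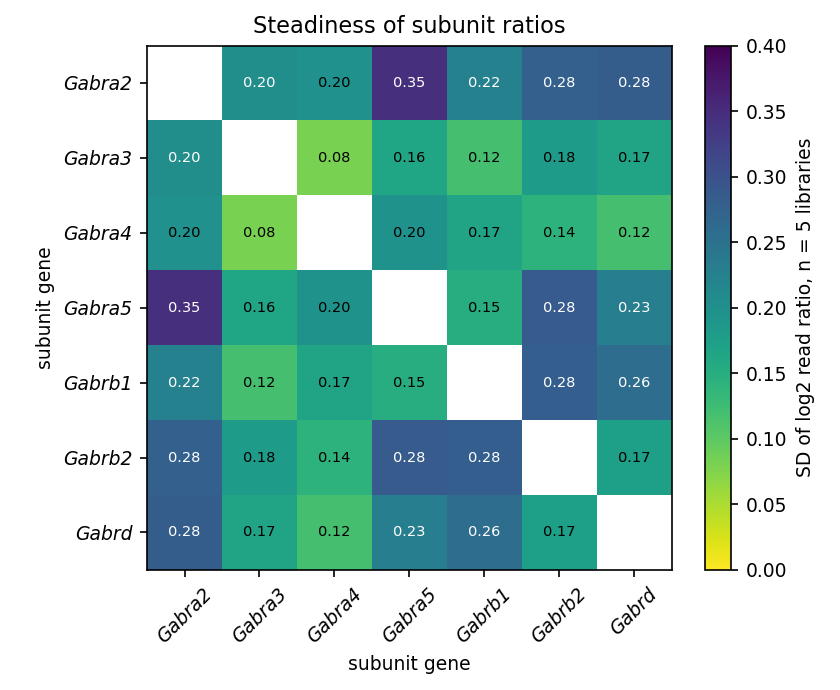
SD over the 5 libraries of the log2 read ratio for each of the 21 pairs of subunit genes (colour and printed value, from 0 in yellow). Gabra3 with Gabra4 was steadiest at 0.08, and Gabra2 with Gabra5 loosest at 0.35.

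The genes whose profile over the 5 libraries was nearest to a member were sought among 9883 genes of at least 10 CPM, by the root mean square difference of log2 CPM less the mean. For Gabrb2 they were Grin2a (0.0311), an NMDA receptor subunit, and Camk4 (0.0403), a calcium-dependent kinase. Grin2a had 117, 139, 155, 194 and 146 CPM in replicates 1 to 5, highest and lowest in the same libraries as Gabrb2. For Gabra2 they were Hdac9 (0.0497), a histone deacetylase, and Dact2 (0.0537). Those of Gabra3 were Rgs17 (0.0218), a regulator of G protein signalling, and Zfp37 (0.0240), and those of Gabra4 were Upf2 (0.00965), a nonsense-mediated decay factor, and Tspan13 (0.0116).

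Gabra5 was nearest to Larp6 (0.00745) and Trim66 (0.0105), Gabrb1 to Fjx1 (0.0121) and Cyb561 (0.0217), and Gabrd to Gm44509 (0.0312) and Pou3f2 (0.0325), a neuronal transcription factor. No member had another member among its nearest 2 genes, which says little where 9883 genes were compared. By distance the closest members were Gabra3 and Gabra4 (0.0719), at ranks 790 and 506 in each other's order. The best rank was 236, for Gabra4 in the order for Gabrb2 (0.127). The nearest member for Gabra5, Gabrb1, was at rank 5730 (0.135). A rank depends on how many genes lie near a member's profile, so ranks of different members cannot be compared. The same distances were not computed for genes other than the members, and they are given as a description.

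Of 12 other GABA-A subunit genes, 9 were in the table, 6 had a mean of at least 1 CPM, and 9 of 9 were called variable in the chi-square test, beside 74.4% of all genes tested. Among them the γ subunit genes Gabrg3 and Gabrg1 had 4.12 ± 0.446 and 3.23 ± 0.517 RPKM, below each of the 7 members. Gabrq was at 1.08 ± 0.359 CPM, and Gabrr2, Gabrr3 and Gabre were under 1 CPM in their means.

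Genes that work with the receptor were counted in the same test, and their counts too stand beside 74.4% called over all genes and 93.4% at the level of the members. All 15 receptor partner genes were called, with a median CV beyond counting of 6.99%. The trafficking factor Gabarapl1 (242 ± 23.8 RPKM) and Dbi (62.8 ± 5.71 RPKM), whose product binds the benzodiazepine site, were the most abundant, and Hap1, which aids receptor recycling, had the largest CV, 18.2%. Of GABA synthesis, release and uptake, 7 of 7 genes were called, with a median CV of 5.18%. Slc6a11, a GABA transporter, had 38.3 ± 1.95 RPKM, and Gad1, a GABA-synthesising enzyme, had the largest CV, 11.5%.

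For GABA-B, the G protein-coupled GABA receptor, 5 of 5 genes were called, and all 5 (4 with libraries scaled to total reads) were highest in replicate 4. So were 4 of 4 blood markers, 6 of 7 mural and leptomeningeal markers and 5 of 6 mitochondrial genes (3 with that scaling). Of deep layer and of oligodendrocyte markers, 0 of 8 were highest there. The share of all genes highest in that library is not given here. The GABA-B subunits Gabbr1 (105 ± 3.84 RPKM) and Gabbr2 (62.9 ± 5.62 RPKM) were the most abundant of their list, and the auxiliary subunit Kctd16 had the largest CV, 17.5%. Of chloride transport, which sets the direction of the GABA-A current, 6 of 6 genes were called. The chloride exporter Slc12a5 had 75.15 ± 8.04 RPKM and the kinase Stk39 14.7 ± 1.53 RPKM, and the importer Slc12a2 had the largest CV, 19.1%. Of 7 neurosteroid synthesis genes 5 could be tested and 1 was called, Cyp11a1, the enzyme of the first step, with an adjusted p of 6.9e-07 in the chi-square test and a CV of 24.3%. Srd5a1 and Tspo were the most abundant of that list by RPKM, at 3.54 ± 0.223 and 3.06 ± 0.318 RPKM, and at 10.3 ± 0.648 and 3.21 ± 0.334 CPM their counting error was larger than that of the subunits.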

How the data were processed

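Total RNA of prefrontal cortex was measured by RNA sequencing. The builds mm10 and GRCm38 are named per the submitters' processing notes, which also name edgeR, featureCounts, Subread 1.6.3, SAMtools 1.9 and STAR 2.6.1d. The annotation release and the strand setting of the counting were not given in the sources used here. The authors deposited log2 values. Their form, log2 of reads plus 0.5 scaled by an effective library size to CPM, was inferred: when 0 reads are set at each column's minimum, 100% of values came out whole within 1e-06 reads. Effective sizes were 0.998 to 1.04 times total reads, and 3 reads correspond to 0.0673 to 0.0870 CPM. The 5 columns used were assigned as stated in the report, and 20 columns were not used.

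Reads, CPM and RPKM were computed in Python 3.11.15, with pandas 2.3.3, numpy 2.4.6 and scipy 1.17.1, and drawn with matplotlib 3.10.9. Lengths and coordinates are those of GENCODE M21 on GRCm38, with symbols for 23846 of 23990 identifiers. Variation between libraries was tested for each gene with a chi-square test of equal CPM (4 degrees of freedom; p adjusted by Benjamini-Hochberg over all genes averaging 5 reads or more; threshold 0.05), which was tested on simulated reads. Reads may share a molecule, so the test and the CV beyond counting cover counting error only.

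The members and gene lists were chosen with earlier results of these data known. Named are the members, the other GABA-A subunits, the 2 most abundant genes (by RPKM) and the most variable gene of each other list, and the 2 nearest genes of each member; a few genes selected this way are not reported here. Cell type markers named, the pair ratios, and shares under other lengths were chosen after values were seen. Alternatives were other scalings, lengths, filters and added reads, and leaving out each replicate.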

Additional observations from a re-analysis of the deposited data

Results flagged for a closer look

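A total of 95 values (levels of the genes named with values, summed levels of the lists, shares and read ratios of members) were searched for a library far from the other 4, as a gap to the nearest library above 0.71 of the whole range. There were 4 such values, and about 4.75 would be found by chance. The level of Gabrg3 in replicate 1 came to 0.770 of its mean in the other libraries. Lamp5, the upper layer marker, was in replicate 4 at 2.39 times its mean over the other libraries. The read ratio of Gabrb2 to Gabrd in replicate 1 was also 0.770 times the mean of the others. The read ratio of Gabra4 to Gabra5 in replicate 4 was 1.34 times the mean of the others.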

How the results depend on the processing

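No paired analysis was possible because a single group, the stressed vehicle-treated males, has assigned columns. The highest member level was 7.74 times the lowest per kilobase of union exon, 3.38 times per kilobase of coding sequence and 6.35 times per kilobase of the longest transcript, which follows from the lengths used. Shares under the other lengths were computed after seeing the data, from the same reads. The larger β gene turned with coding length (Gabrb2 38.7%, against 59.6% with union exons). The highest over the lowest member level was 7.35 to 8.06 times with each replicate left out. The number of genes varying beyond counting error was 12646 to 13125 with each replicate left out, 15862 without a filter on low reads and 12693 at a minimum of 20 reads, and all 7 members were called under each of these settings. The members' median CV was 8.74% to 13.0% with each replicate left out. That of all genes was 7.45% to 8.30%, and 6.95% over genes of at least 10 CPM. The range of the members' median log2 deviation over libraries was 0.186 (without replicate 4) to 0.409, and 0.352 with scaling to total reads. The all-gene median of replicate 4 less replicate 1 was 0.02 on the log2 scale, -0.04 with scaling to total reads and 0.01 with scaling by median of ratios. Depth did not limit the members, whose counting SD was at most 2.44%. With 5 libraries of 1 group, the spread between libraries limits every statement.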
